A study of Mus musculus with 9 samples.

Results

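Expression of 10 genes for secreted inflammatory factors and prostaglandin enzymes was followed in mouse embryonic fibroblasts that overexpressed Zscan4f, a form labelled Zscan4f3A, or neither. The genes were picked by name from the 54986 gene IDs of the files: the CC chemokines Ccl2 and Ccl7, the CXC chemokines Cxcl1, Cxcl5 and Cxcl12, the cytokines Il6 and Csf1, and the enzymes Ptgs1, Ptgs2 and Ptges. Each name matched 1 gene ID, and all 10 passed the filter on low values described below, as did 15837 genes in all. RNA-seq of total RNA was made from 9 libraries of primary C57BL/6 fibroblasts, 3 without a named overexpressed gene (control), 3 with Zscan4f and 3 with Zscan4f3A. Every library, control included, is labelled D4-OSKM-2ndMEFs, so all groups share the OSKM reprogramming factors and no fibroblast without them was measured. The labels name no empty vector for the control and do not spell out D4, the promoter behind the overexpression or the change in Zscan4f3A. Nothing in them says that the 3 libraries of a group came from separate cultures, so the p-values speak for the variation among these libraries alone, some of which may be technical.

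Chemokines are small secreted proteins that draw leukocytes along a concentration gradient, and fibroblasts are a known source of several of them. Prostaglandins are lipid signals: phospholipase frees arachidonic acid from membranes, the cyclooxygenases Ptgs1 and Ptgs2 turn it into prostaglandin H2, and terminal enzymes such as Ptges and Ptgis make prostaglandin E2 and prostacyclin from that. Ptgs2, Il6, Cxcl1 and Ccl2 are textbook genes induced by inflammatory signals through NF-kB and related factors, while Ptgs1 is usually described as constitutive.

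Zscan4f itself was listed at 0 to 0.960 TPM (a level per length of transcript, scaled to a common total in each library) in control, at 558 to 570.0 TPM in the Zscan4f libraries and at 654 to 836 TPM in the Zscan4f3A libraries. Aligned sequence, estimated from the coverage values, was 3.31 gigabases in Zscan4f3A replicate 3 and 6.60 to 8.39 gigabases in the others. How many fragments lie behind a value is unknown, since counts are not among the files used here. All 13 fibroblast markers examined passed the filter, and their summed level was 15773 to 15841 TPM in control, 15566 to 15775 TPM with Zscan4f and 15520 to 15990 TPM with Zscan4f3A. Single markers did move with Zscan4f, 3 of the 13 higher than control and 6 lower by limma, among them Dcn (log2 fold change 0.51) and Pdgfra (0.46) higher and Col5a1 (-0.53) and Pdgfrb (-0.50) lower. Over all genes tested, 18.5% were called in this comparison.

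With Zscan4f, the transcripts of both cyclooxygenases and of Ccl2 rose, and those of Ptges and Cxcl12 fell. The 5 other genes, Ccl7, Cxcl1, Cxcl5, Il6 and Csf1, did not pass the test. By limma, on log2(TPM + 1) and with Benjamini-Hochberg adjustment over all 15837 genes, 3 of the 10 were higher than control and 2 lower. Of all genes tested, 8.74% were called higher and 9.71% lower (18.5% in either direction). The median log2 fold change of the 10 genes was 0.03, beside -0.0029 over all genes tested. With Zscan4f3A none of the 10 passed the test (0 of 10), against 0.0316% of all genes. An unadjusted p under 0.05 (limma) was found for 2 of the 10, Ptgs1 and Cxcl12, and for 1389 of all 15837 genes tested. RNA of whole cultures was measured, so a change in the number of cells that express a gene and a change in RNA per cell cannot be told apart.

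**Figure D1:**
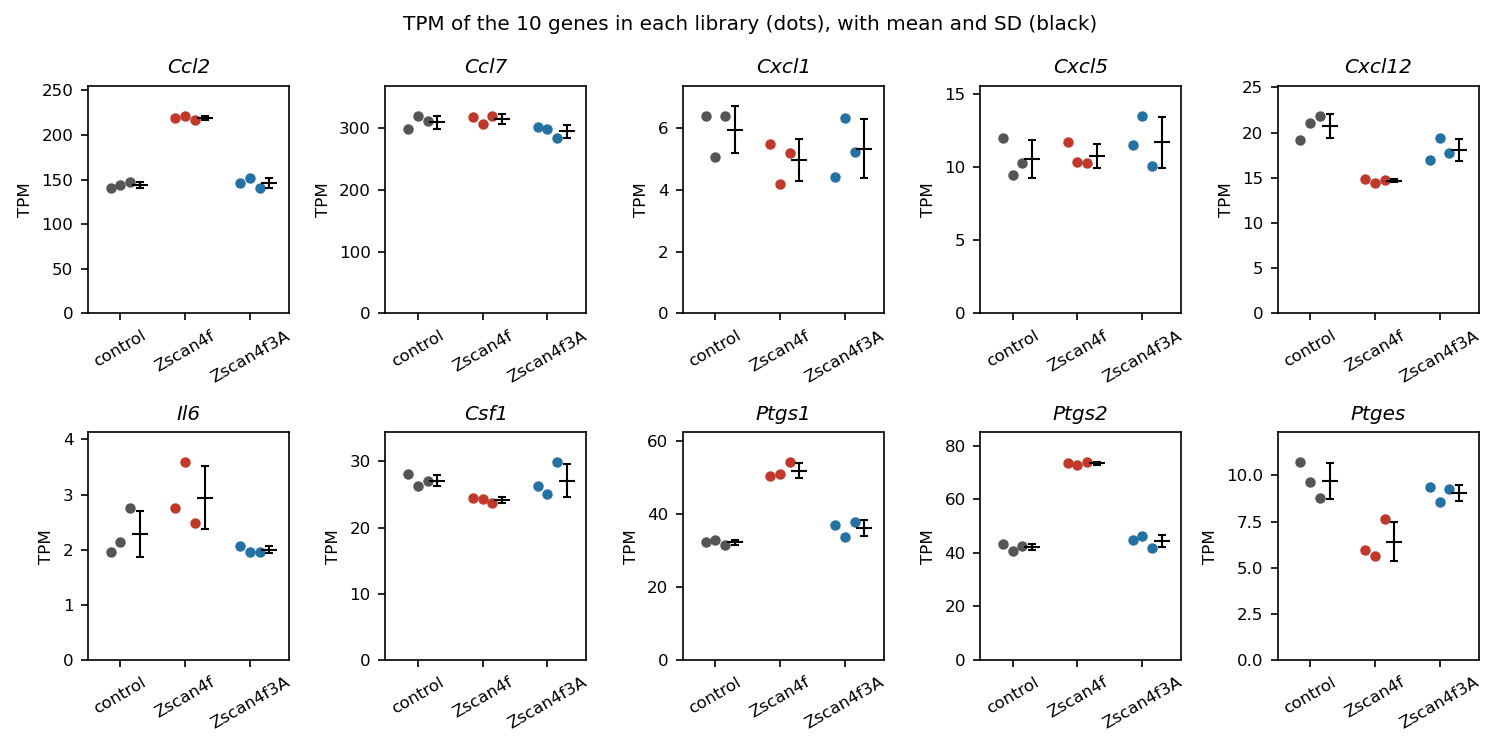
TPM of each of the 10 genes (vertical axes, linear and starting at 0) by group, with 1 dot for each library and the mean and SD of 3 libraries in black. The Zscan4f dots lie above all control dots for Ccl2, Ptgs1 and Ptgs2 and below them for Cxcl12, Csf1 and Ptges.

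The levels in control spanned 135-fold. Ccl7 led with 309 ± 10.5 TPM (SD, n = 3 here and below), followed by Ccl2 at 144 ± 3.25, Ptgs2 at 42.2 ± 1.27, Ptgs1 at 32.2 ± 0.692, Csf1 at 27.1 ± 0.854 and Cxcl12 at 20.7 ± 1.35 TPM. Cxcl5 at 10.6 ± 1.28 and Ptges at 9.71 ± 0.966 TPM overlapped between libraries, and Cxcl1 at 5.94 ± 0.765 and Il6 at 2.28 ± 0.418 TPM came last. All other neighbours in this order were separated in the 3 control libraries. The order of the 10 means was the same in the Zscan4f and in the Zscan4f3A libraries, and there Cxcl5 and Ptges no longer overlapped.

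Ccl2 (ENSMUSG00000035385.5, chromosome 11, 82035571 to 82037453 on GRCm38) encodes MCP-1, the monocyte chemoattractant that acts through the receptor Ccr2. It stood at 141, 144 and 148 TPM in the control libraries, while the Zscan4f libraries held 219.6, 222 and 217 TPM and the Zscan4f3A libraries 146, 152 and 141 TPM. The Zscan4f libraries thus lay above all others, while control and Zscan4f3A overlapped. The log2 fold change of Zscan4f against control was 0.60 (SE 0.04, adjusted p = 1.7e-05) and that against Zscan4f3A 0.58 (SE 0.04, adjusted p = 3.4e-05). For Zscan4f3A against control it was 0.02, with a 95% interval from -0.06 to 0.11 (adjusted p = 0.88).

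Ccl7 (ENSMUSG00000035373.2, chromosome 11, 82045712 to 82047525), which encodes the related chemokine MCP-3, starts 10.1 kilobases from the start of Ccl2 on the same strand. Its levels were 297, 318 and 311 TPM in control, 317, 305 and 319 TPM with Zscan4f and 302, 298 and 283 TPM with Zscan4f3A. Control and Zscan4f overlapped, with a log2 fold change of 0.02 and a 95% interval from -0.07 to 0.11 (adjusted p = 0.75). Zscan4f3A lay below Zscan4f in every library, but the difference of 0.09 did not pass the test (adjusted p = 0.15). The ratio of Ccl2 to Ccl7 within a library was 0.474, 0.451 and 0.475 in control, 0.693, 0.726 and 0.680 with Zscan4f and 0.484, 0.510 and 0.499 with Zscan4f3A. The 3 groups did not overlap in this ratio. An exact permutation test, two-sided, gave p = 0.1 for each pair of groups, the smallest that 3 against 3 libraries allow.

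These genes lie in a cluster of CC chemokines on chromosome 11. The next gene, Ccl11 (eotaxin-1, an eosinophil attractant), was low but also rose, from 5.03 ± 1.08 to 8.72 ± 0.937 TPM with Zscan4f (a log2 fold change of 0.70 with SE 0.18, adjusted p = 0.026), and stood at 5.05 ± 1.18 TPM with Zscan4f3A. Its call was lost without control replicate 1 or 3 or Zscan4f replicate 2 or 3 (adjusted p up to 0.090), and without a filter on low values (0.14). Ccl8 stood at 0.916 ± 0.797 TPM in control and 2.08 ± 0.454 TPM with Zscan4f and did not pass the test (adjusted p = 0.21). Ccl12 was listed at 0 in every library and Ccl1 at no more than 0.120 TPM. Ccl7 thus lay between 2 genes that were called higher and was not called itself.

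**Figure D2:**
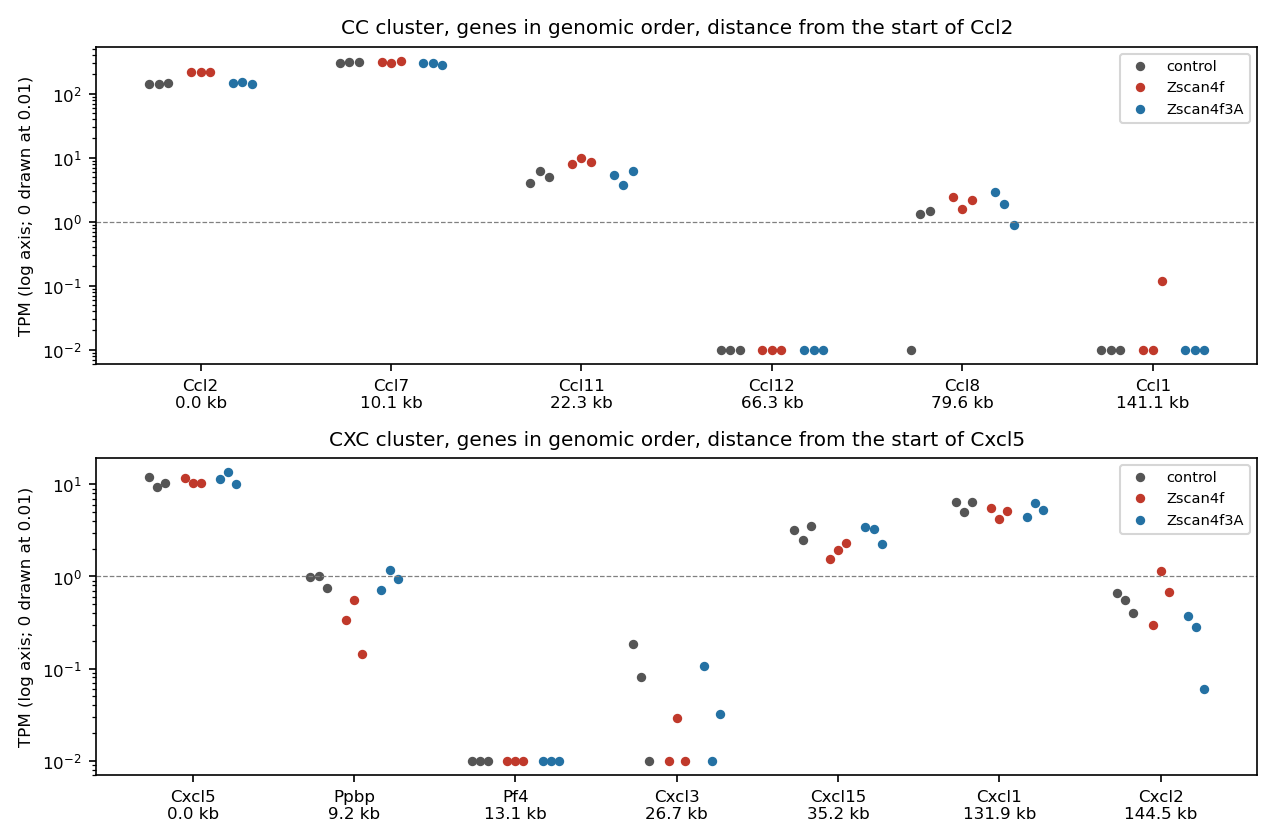
TPM (log axis, values of 0 drawn at 0.01, dashed line at 1 TPM) of the genes of the CC and CXC chemokine clusters in genomic order, 1 dot for each library, with the distance of each gene's start from that of Ccl2 or Cxcl5 in kilobases. Ccl2 and Ccl7 stand above 100 TPM in every library, while Ccl12 and Pf4 are listed at 0 in all 9.

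Cxcl1 (ENSMUSG00000029380.11, chromosome 5, 90891241 to 90893115) and Cxcl5 (ENSMUSG00000029371.7, chromosome 5, 90759360 to 90761624) encode neutrophil attractants that act through Cxcr2. Cxcl1 stood at 6.37, 5.06 and 6.40 TPM in control, 5.49, 4.19 and 5.19 TPM with Zscan4f and 4.42, 6.33 and 5.23 TPM with Zscan4f3A. Cxcl5 stood at 11.9, 9.42 and 10.3 TPM, 11.7, 10.3 and 10.3 TPM, and 11.5, 13.5 and 10.05 TPM in the same groups. For both genes all 3 groups overlapped. Zscan4f against control gave a log2 fold change of -0.22 for Cxcl1 (95% interval -0.55 to 0.11, adjusted p = 0.36) and 0.03 for Cxcl5 (-0.24 to 0.31, adjusted p = 0.90). Among the neighbours on chromosome 5, Cxcl15 stood at 3.08 ± 0.550 TPM in control and 1.94 ± 0.393 TPM with Zscan4f (adjusted p = 0.092), and Cxcl2, Cxcl3, Ppbp and Pf4 did not pass the filter.

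Cxcl12 (ENSMUSG00000061353.11, chromosome 6, 117168535 to 117181367) encodes SDF-1, a homeostatic chemokine of stromal cells that acts through Cxcr4 and is scavenged by Ackr3. It stood at 19.2, 21.0 and 21.9 TPM in control, 14.9, 14.5 and 14.7 TPM with Zscan4f and 17.0, 19.4 and 17.8 TPM with Zscan4f3A. The Zscan4f libraries were the lowest of all, and the Zscan4f3A values reached into the control range. Against control the log2 fold change was -0.47 with Zscan4f (SE 0.07, adjusted p = 0.0020) and -0.19 with Zscan4f3A (95% interval -0.34 to -0.03, unadjusted p = 0.025 and adjusted p = 0.51 by limma). Zscan4f against Zscan4f3A gave -0.28 (SE 0.07, adjusted p = 0.028). This last call was lost without Zscan4f replicate 1, 2 or 3 (adjusted p = 0.067, 0.082 and 0.077) and without Zscan4f3A replicate 2 or 3 (0.085 and 0.055). In all it was lost under 6 of the 16 alternatives run.

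Il6 (ENSMUSG00000025746.11, chromosome 5, 30013114 to 30019981), the cytokine interleukin-6, was the lowest of the 10 genes. Its libraries held 1.96, 2.14 and 2.76 TPM in control, 2.76, 3.59 and 2.49 TPM with Zscan4f and 2.07, 1.96 and 1.96 TPM with Zscan4f3A. The Zscan4f libraries lay above those of Zscan4f3A and overlapped control. Neither difference passed the test, with a log2 fold change of 0.26 against control (95% interval -0.06 to 0.58, adjusted p = 0.25) and 0.39 against Zscan4f3A (0.07 to 0.70, adjusted p = 0.10). Csf1 (ENSMUSG00000014599.10, chromosome 3, 107741048 to 107760469), the growth factor of macrophages, stood at 28.0, 26.3 and 27.0 TPM in control, 24.5, 24.4 and 23.7 TPM with Zscan4f and 26.3, 25.0 and 29.9 TPM with Zscan4f3A. The Zscan4f libraries were below all others, but the difference from control of -0.16 (SE 0.07) had an unadjusted p of 0.046 and an adjusted p of 0.15 by limma.

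Ptgs2 (ENSMUSG00000032487.8, chromosome 1, 150100031 to 150108227), the inducible cyclooxygenase COX-2, had the largest log2 fold change of the 10 genes. It stood at 43.3, 40.8 and 42.4 TPM in control, 73.5, 72.9 and 73.8 TPM with Zscan4f and 44.9, 46.2 and 41.8 TPM with Zscan4f3A. The Zscan4f libraries lay above all others and differed from each other by less than the libraries of either other group. The log2 fold change of Zscan4f was 0.79 against control (SE 0.05, adjusted p = 1.7e-05) and 0.72 against Zscan4f3A (SE 0.05, adjusted p = 4.3e-05). Zscan4f3A against control gave 0.07, with a 95% interval from -0.04 to 0.18 (adjusted p = 0.68).

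Ptgs1 (ENSMUSG00000047250.13, chromosome 2, 36230426 to 36252272), the cyclooxygenase COX-1, stood at 32.3, 32.9 and 31.5 TPM in control, 50.5, 51.1 and 54.3 TPM with Zscan4f and 37.0, 33.8 and 37.8 TPM with Zscan4f3A. Here the 3 groups did not overlap, and the Zscan4f3A libraries lay between control and Zscan4f. The log2 fold change against control was 0.67 with Zscan4f (SE 0.05, adjusted p = 8.9e-05) and 0.16 with Zscan4f3A (95% interval 0.035 to 0.28, unadjusted p = 0.018 and adjusted p = 0.48 by limma), and Zscan4f exceeded Zscan4f3A by 0.51 (SE 0.05, adjusted p = 5.5e-04). Within a library Ptgs2 was 1.34, 1.24 and 1.35 times as abundant as Ptgs1 in control, 1.45, 1.43 and 1.36 times with Zscan4f and 1.21, 1.37 and 1.11 times with Zscan4f3A. This ratio did not overlap between Zscan4f and control (exact permutation test, two-sided, p = 0.1, the smallest possible) and overlapped in the other pairs.

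Ptges (ENSMUSG00000050737.13, chromosome 2, 30889471 to 30929863), the microsomal prostaglandin E synthase that works with the cyclooxygenases, went the opposite way. It stood at 10.7, 9.62 and 8.80 TPM in control, 5.96, 5.64 and 7.62 TPM with Zscan4f and 9.37, 8.55 and 9.27 TPM with Zscan4f3A. The Zscan4f libraries lay below all others, while control and Zscan4f3A overlapped. The log2 fold change of Zscan4f was -0.54 against control (SE 0.11, adjusted p = 0.012) and -0.45 against Zscan4f3A (SE 0.11, adjusted p = 0.032). Without a filter on low values the first had an adjusted p of 0.056. The second was lost without control replicate 2 (adjusted p = 0.051), Zscan4f replicate 1 or 2 (0.098 and 0.10) or any 1 Zscan4f3A library (0.084, 0.056 and 0.074 for replicates 1, 2 and 3). In all it was lost under 9 of the 16 alternatives run, 6 of them with a library left out, with adjusted p up to 0.12. The ratio of Ptges to Ptgs2 within a library was 0.248, 0.236 and 0.207 in control, 0.0810, 0.0774 and 0.103 with Zscan4f and 0.209, 0.185 and 0.222 with Zscan4f3A. Zscan4f did not overlap either other group in it (exact permutation test, two-sided, p = 0.1 for both pairs).

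**Figure D3:**
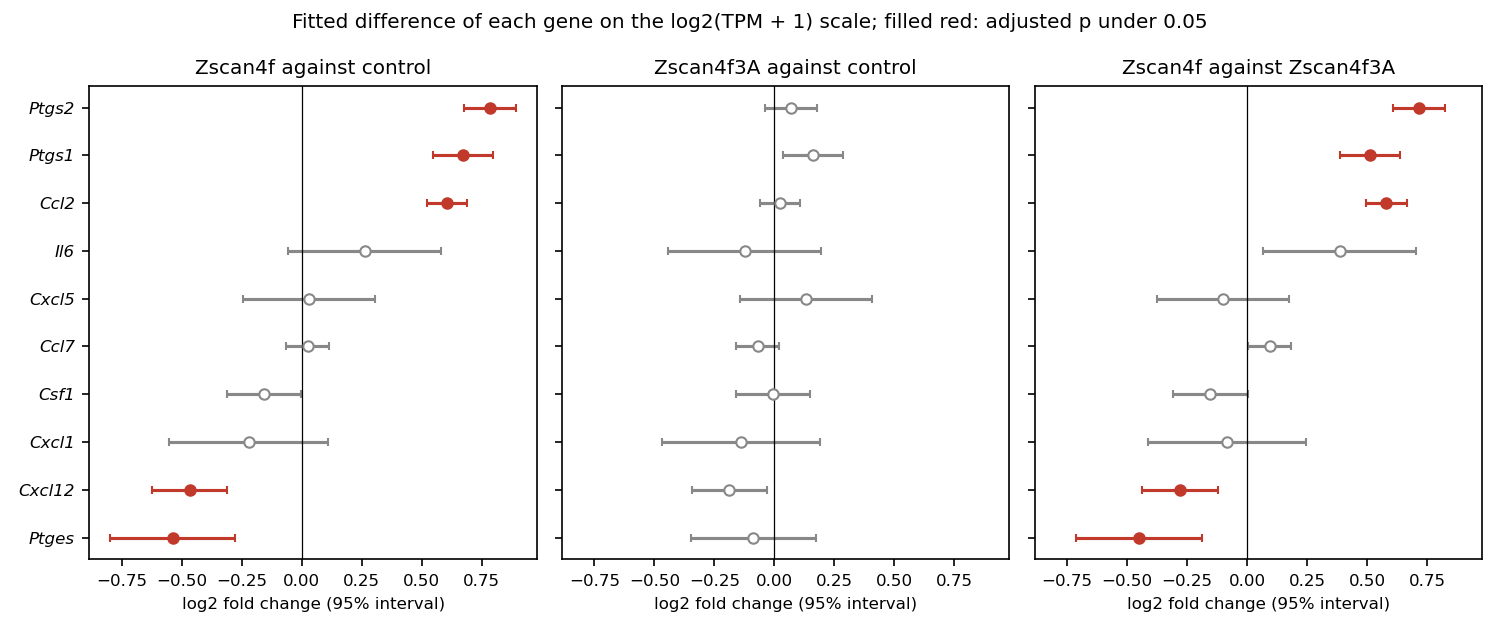
Log2 fold change of each gene with its 95% interval, on the log2(TPM + 1) scale, in the 3 comparisons, with filled red points for an adjusted p under 0.05. Against control and against Zscan4f3A the same 5 genes are called for Zscan4f, and no gene is called for Zscan4f3A against control.

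Zscan4f was compared with Zscan4f3A directly, which tests whether the libraries of these groups differ. Zscan4f itself stood at 558 to 570.0 TPM in the Zscan4f libraries and 654 to 836 TPM in the Zscan4f3A libraries. A difference by form and one by level of overexpression therefore cannot be told apart. As against control, 3 of the 10 genes were higher with Zscan4f (Ptgs2, Ccl2 and Ptgs1) and 2 lower (Ptges and Cxcl12), where 7.48% and 7.64% of all genes were called higher and lower (15.1% in either direction). These comparisons share the Zscan4f libraries. The count fell from 5 to 3 without Zscan4f3A replicate 3, the library of lowest depth, and also without Zscan4f replicate 1, Zscan4f replicate 2 or Zscan4f3A replicate 2. Ptgs2, Ccl2 and Ptgs1 were called with each of the 9 libraries left out in turn, with adjusted p up to 5.2e-04, 4.3e-04 and 0.0035.

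The bases before the start of the genes are shown for a pair of cyclooxygenase genes that rose and for 3 genes that did not pass the test, since the NF-kB consensus is the motif best known for the inducible genes among them. Of the 10 genes, 7 were found in the RefSeq promoter table (GRCm38.p6), and Ccl2, Ccl7 and Cxcl5 were not. Each line gives the bases from 160 to 21 before the RefSeq start, read towards the gene, with matches to the NF-kB consensus in capitals.
Ptgs2, chr1:150099871-150100010, plus strand: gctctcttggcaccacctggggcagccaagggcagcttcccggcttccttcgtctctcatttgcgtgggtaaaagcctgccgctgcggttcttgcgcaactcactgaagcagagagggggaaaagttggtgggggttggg
Ptgs1, chr2:36230266-36230405, plus strand: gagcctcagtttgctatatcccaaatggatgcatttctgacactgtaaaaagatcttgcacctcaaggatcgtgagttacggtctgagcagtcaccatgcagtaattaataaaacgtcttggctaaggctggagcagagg
Cxcl1, chr5:90891085-90891224, plus strand: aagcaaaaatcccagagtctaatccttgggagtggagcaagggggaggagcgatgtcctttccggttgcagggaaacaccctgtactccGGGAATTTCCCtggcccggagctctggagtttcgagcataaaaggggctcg
Il6, chr5:30012954-30013093, plus strand: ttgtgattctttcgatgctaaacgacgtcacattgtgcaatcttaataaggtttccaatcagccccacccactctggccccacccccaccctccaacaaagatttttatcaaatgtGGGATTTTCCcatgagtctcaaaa
Csf1, chr3:107760490-107760629, minus strand: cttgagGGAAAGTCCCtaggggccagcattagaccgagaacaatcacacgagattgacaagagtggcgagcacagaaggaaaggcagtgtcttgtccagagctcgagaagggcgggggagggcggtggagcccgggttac

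In windows of 300 bases, 250 before and 50 after the start, the NF-kB consensus, searched on both strands by its usual degenerate letters, matched in Cxcl1, Il6 and Csf1. The Cxcl1 match begins 71 bases before the start and is overlapped by a match on the other strand, that of Il6 begins 44 bases before the start, and that of Csf1 lies between 154 and 145 bases before it on the other strand. The windows of Ptgs2, Ptgs1, Ptges and Cxcl12, all called with Zscan4f, held no match. The RefSeq start used for Ptges lies 26.6 kilobases from the start of the gene in the files, so its window is not the one before the coordinates given above. Of all 32851 promoter windows in the table, 8.46% held one. The AP-1 motif TGANTCA matched in Il6 alone, 249 bases before its start, and in 7.81% of all windows, and the TATA box TATAAA matched in none of the 7 and in 13.6% of all. A match here is a description of letters, and these windows leave out more distant elements.

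Around the cyclooxygenases, the other genes of prostanoid synthesis and reception moved in both directions. Of 26 such genes 17 passed the filter, while no library held more than 0.964 TPM of any of the remaining 9. Of the 17, Pla2g4c passed through the Zscan4f libraries alone and the thromboxane synthase Tbxas1 through the control libraries alone, so that a difference was built into their choice, and they are described without a test. Of the other 15, 4 were higher than control with Zscan4f and 2 lower, beside 8.74% and 9.71% of all genes tested. Their median log2 fold change was 0.15. With Zscan4f3A 0 of the 15 were called, and 0 had an unadjusted p under 0.05 (limma). Of all 15837 genes tested, 1389 had such a p.

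At the step that frees arachidonic acid, the main cytosolic phospholipase Pla2g4a fell with Zscan4f from 35.0 ± 2.29 to 28.1 ± 2.32 TPM (adjusted p = 0.019, log2 fold change -0.31 with SE 0.07). This call was lost without control replicate 1 or 3 or Zscan4f replicate 2 or 3 (adjusted p up to 0.066), and without a filter (0.078). Pla2g4c, another phospholipase A2, was listed at 0.196 ± 0.0711 TPM in control, 1.74 ± 0.459 TPM with Zscan4f and 0.267 ± 0.0679 TPM with Zscan4f3A. Its level was below that of Pla2g4a in every library.

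Among the terminal enzymes, Ptgis, the prostacyclin synthase, fell the most. It stood at 13.7, 12.3 and 12.2 TPM in control, 5.30, 5.43 and 4.37 TPM with Zscan4f and 12.1, 12.0 and 12.0 TPM with Zscan4f3A, so that Zscan4f lay apart from both. The log2 fold change was -1.19 against control (SE 0.09, adjusted p = 5.1e-05) and -1.11 against Zscan4f3A (SE 0.09, adjusted p = 1.1e-04). The cytosolic prostaglandin E synthase Ptges3, also a cochaperone of Hsp90, rose slightly from 153 ± 5.87 to 173 ± 4.99 TPM (adjusted p = 0.031). Without control replicate 1 or 2 or any 1 Zscan4f library its adjusted p was 0.051 to 0.11, and without a filter 0.11. Ptges2 stood at 10.3 ± 1.71 and 9.95 ± 1.16 TPM and did not pass the test (adjusted p = 0.88). Akr1b3, an aldose reductase that can also make prostaglandin F2alpha, rose from 106 ± 4.10 to 134 ± 2.45 TPM (adjusted p = 0.0097, and 0.057 without a filter). Tbxas1 was listed at 1.08 ± 0.0426 TPM in control, 0.780 ± 0.0635 TPM with Zscan4f and 0.545 ± 0.193 TPM with Zscan4f3A.

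Of the receptors, Ptgfr for prostaglandin F2alpha rose with Zscan4f from 1.22 ± 0.241 to 3.37 ± 0.480 TPM (adjusted p = 0.0017, log2 fold change 0.98 with SE 0.14), and Tbxa2r for thromboxane from 7.96 ± 0.777 to 11.1 ± 0.479 TPM (0.43, SE 0.08, adjusted p = 0.0073). The prostaglandin E2 receptors Ptger1 and Ptger4 did not pass the test, and Ptger2 and Ptger3 did not pass the filter. Of the enzymes of the leukotriene branch, 3 of 6 passed the filter and 0 were called, also at an unadjusted p under 0.05 (0 of 3, limma). Lta4h, the highest of these, stood at 99.2 ± 1.89 TPM in control and 101 ± 1.27 TPM with Zscan4f.

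**Figure D4:**
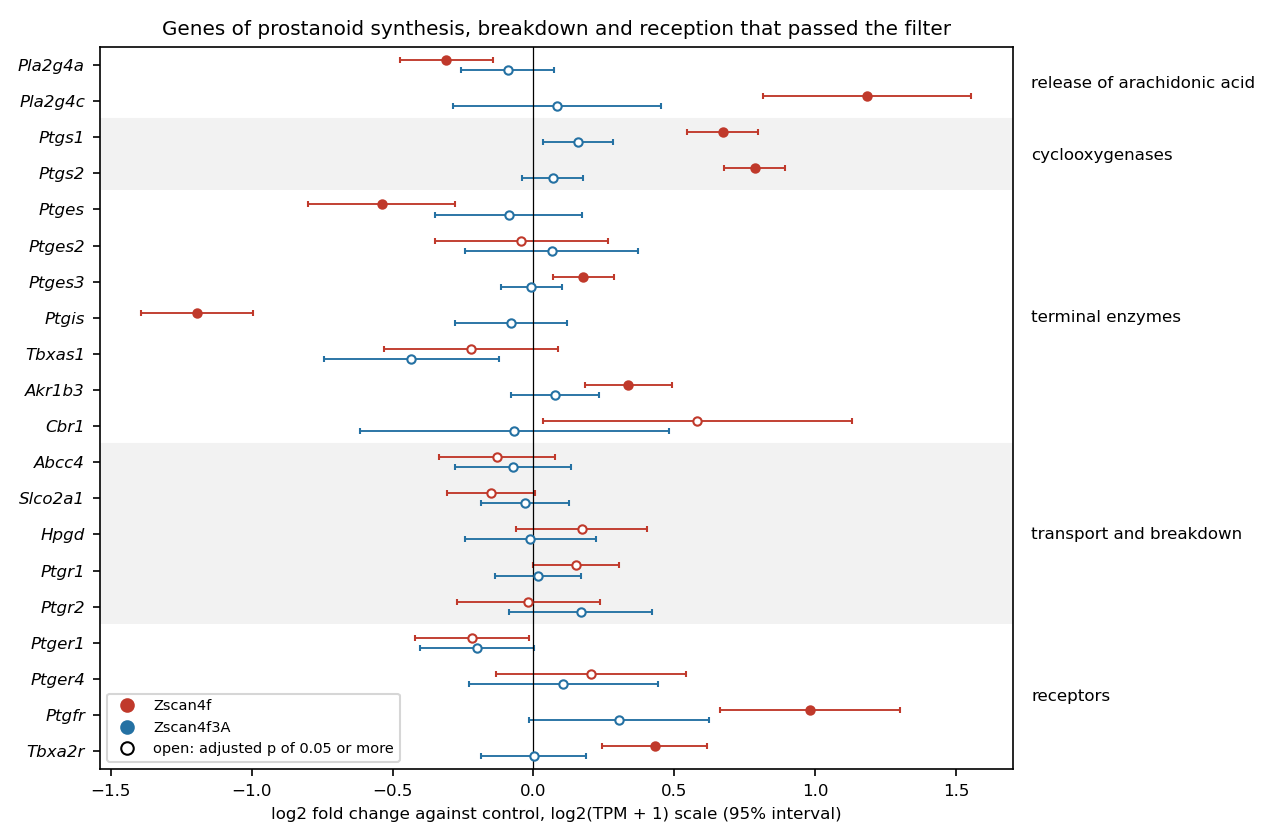
Log2 fold change against control, with its 95% interval, of the cyclooxygenases, Ptges and the other genes of the pathway that passed the filter, by step, for Zscan4f (red) and Zscan4f3A (blue), filled where the adjusted p is under 0.05. Apart from Pla2g4c, red points are filled on both sides of 0, from -1.19 for Ptgis to 0.98 for Ptgfr. No blue point is filled. Pla2g4c, filled in red, passed the filter through its Zscan4f libraries alone, and Tbxas1, open, through its control libraries alone. A difference was built into their choice, so their points and intervals are not read as a test.

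The receptors of the ligands differed in whether the cells expressed them at all. Ccr2 did not exceed 0.0517 TPM in any library, Cxcr2 0.0382 TPM and Csf1r 0.621 TPM, so the receptors that Ccl2, Cxcl1, Cxcl5 and Csf1 act on were at or near 0. The receptors of Cxcl12 were present. Cxcr4 fell with Zscan4f from 6.72 ± 0.827 to 3.19 ± 0.557 TPM (adjusted p = 0.0028, log2 fold change -0.89 with SE 0.14), and stood at 5.68 ± 0.839 TPM with Zscan4f3A, while Ackr3 stood at 219 ± 6.68, 232 ± 3.66 and 206 ± 3.03 TPM in the 3 groups and differed between Zscan4f and Zscan4f3A (adjusted p = 0.0091) but not from control by the test (0.12). For interleukin-6, Il6ra stood at 36.8 ± 0.891 TPM in control and 33.9 ± 1.48 TPM with Zscan4f (adjusted p = 0.33). Its partner Il6st stood at 66.4 ± 1.25 TPM in control and 51.3 ± 3.70 TPM with Zscan4f, whose libraries were below all others. Its log2 fold change of -0.37 (95% interval -0.69 to -0.05) had an unadjusted p of 0.029 and an adjusted p of 0.11 by limma. Neither gene thus passed the test. Downstream of such receptors, Socs3, a feedback inhibitor, rose from 67.9 ± 3.20 to 94.8 ± 0.779 TPM with Zscan4f (adjusted p = 3.7e-04). With Zscan4f3A Socs3 stood at 80.1, 73.0 and 72.4 TPM, above every control library (unadjusted p = 0.022 and adjusted p = 0.50 by limma). With Zscan4f the kinase Jak2 rose from 46.4 ± 1.28 to 60.8 ± 0.672 TPM (adjusted p = 0.0010), while Jak1 fell from 119 ± 0.211 to 107 ± 3.04 TPM (adjusted p = 0.013, and 0.055 without Zscan4f replicate 3). In this list of 19 genes 11 passed the filter. With Zscan4f 2 rose and 2 fell (median log2 fold change -0.12), beside 8.74% and 9.71% of all genes tested. With Zscan4f3A 0 of the 11 were called, and 2 (Socs3 and Ackr3) had an unadjusted p under 0.05 (limma). Of all 15837 genes tested, 1389 had such a p.

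Other chemokines and cytokines were mostly low. Of 30 other chemokines in the files under 1 gene ID, 10 passed the filter. With Zscan4f against control 2 were called, Ccl11 and Cxcl16, both higher (median log2 fold change 0.15). Of all genes tested, 18.5% were called in either direction. Cxcl16, a membrane-bound chemokine, rose from 3.13 ± 0.613 to 6.77 ± 0.351 TPM (adjusted p = 0.0074). Cxcl14, the most abundant of these with 232 ± 0.678 TPM in control, stood at 281 ± 22.9 TPM with Zscan4f and did not pass that test (adjusted p = 0.068).

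Of 22 other cytokines 15 passed the filter. With Zscan4f 3 were higher and 2 lower (median log2 fold change -0.04), beside 8.74% and 9.71% of all genes tested. Spp1, osteopontin, rose from 345 ± 9.32 to 422 ± 20.2 TPM (adjusted p = 0.0033), Il33, an alarmin, from 4.86 ± 0.444 to 7.18 ± 0.876 TPM (0.022) and Il15 from 0.816 ± 0.202 to 2.22 ± 0.266 TPM (0.022). For Il15, 5 libraries reached a TPM of 1, those with Zscan4f among them, and without these it would not have passed the filter. A difference was thus built into its choice, and its call is not read as a test. Il1rn, the antagonist of the interleukin-1 receptor, fell from 11.2 ± 1.99 to 5.66 ± 0.628 TPM (adjusted p = 0.0030), and Il34, which like Csf1 activates Csf1r, from 4.13 ± 0.475 to 2.67 ± 0.525 TPM (0.044). The call of Il33 was lost without control replicate 1 or 3 or Zscan4f replicate 1 or 2 (adjusted p up to 0.074). That of Il15 was lost without control replicate 1 or 3 or any 1 Zscan4f library (up to 0.080), and that of Il34 without any 1 library other than Zscan4f3A replicate 2 (up to 0.14). Without a filter on low values the adjusted p of Il33, Il15 and Il34 was 0.078, 0.09998 and 0.15. That of Il15 was 0.084 with a pseudocount of 0.1, and that of Il34 was 0.056 when only the 2 groups compared were fitted. Tnf and Il1b, strong inducers of these factors, did not pass the filter, and neither did Csf2 or Csf3.

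All 31 NF-kB factors and regulators listed, upstream receptors included, passed the filter. With Zscan4f 3 were higher than control and 1 lower (median log2 fold change 0.08), beside 8.74% and 9.71% of all genes tested. Against Zscan4f3A 1 of the 31 was called by limma, Tlr2 (adjusted p = 7.5e-04), beside 15.1% of all genes tested. Nfkb2 (0.27), Nfkbie (0.14) and Il1r1 (0.086) were not. Of the core factors, Rela stood at 80.6 ± 1.04 TPM in control and 83.4 ± 1.89 TPM with Zscan4f (adjusted p = 0.40), Nfkb1 at 58.4 ± 6.14 and 59.3 ± 2.71 TPM (0.89) and the inhibitor Nfkbia, itself a target of the pathway, at 47.1 ± 4.13 and 49.1 ± 0.640 TPM (0.62). Tlr2, a receptor for bacterial lipoproteins, rose from 25.1 ± 0.651 to 37.0 ± 1.94 TPM (adjusted p = 3.4e-04, log2 fold change 0.54 with SE 0.06). Nfkb2 rose from 53.6 ± 2.46 to 61.3 ± 1.80 TPM (0.022) and the inhibitor Nfkbie from 4.48 ± 0.169 to 6.41 ± 0.659 TPM (0.044), while Il1r1 fell from 4.36 ± 0.0541 to 2.89 ± 0.346 TPM (0.015). The call of Nfkb2 was lost without control replicate 2 or 3 or Zscan4f replicate 1 or 3 (adjusted p up to 0.079), that of Nfkbie without any 1 library other than Zscan4f3A replicate 1 or 2 (up to 0.13) and without a filter (0.15), and that of Il1r1 without Zscan4f replicate 2 or 3 (up to 0.057).

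Of 11 C/EBP transcription factors and RNA decay factors, 0 rose and 3 fell with Zscan4f (median log2 fold change -0.14), beside 8.74% and 9.71% of all genes tested. Cebpd, a factor of the acute phase response, fell from 27.1 ± 2.33 to 18.8 ± 1.33 TPM (adjusted p = 0.0036), Cebpa from 6.62 ± 0.752 to 3.70 ± 0.310 TPM (0.0033) and Zfp36l2, which binds AU-rich elements and promotes decay of the RNA, from 88.3 ± 5.86 to 60.5 ± 2.18 TPM (5.0e-04). With Zscan4f3A these stood at 22.3 ± 1.53, 5.40 ± 0.645 and 72.1 ± 4.03 TPM, between the other groups in mean. The related decay factor Zfp36 did not pass the test. With Zscan4f3A 0 of the 31 and 0 of the 11 were called, and 0 and 2 (Cebpd and Zfp36l2) had an unadjusted p under 0.05 (limma). Of all 15837 genes tested, 1389 had such a p.

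Markers of other cell types were read beside these genes, since leukocytes and epithelia also make them. The 17 macrophage and leukocyte markers summed to 21.3 to 24.3 TPM in control, 27.7 to 31.0 TPM with Zscan4f and 21.4 to 23.0 TPM with Zscan4f3A. The defining genes Ptprc (CD45) and Adgre1 (F4/80) were at or near 0, with at most 0.0843 and 0.0602 TPM in any library. Of the 5 leukocyte markers that passed the filter, Cd68, a lysosomal protein, rose with Zscan4f (12.0 ± 0.967 to 18.7 ± 1.39 TPM, adjusted p = 0.0019) and Cd14 fell (3.69 ± 0.437 to 2.50 ± 0.229 TPM, 0.044). Cd14 was about as low with Zscan4f3A, at 2.31, 2.25 and 2.95 TPM, where 0 of the 5 were called against control. Itgam (CD11b) stood at 0.931 ± 0.323 TPM in control, 2.12 ± 0.517 TPM with Zscan4f and 0.585 ± 0.347 TPM with Zscan4f3A. It reached a TPM of 1 in 4 libraries and would not have passed the filter without those of Zscan4f. A difference was thus built into its choice, and it is described without a test. The 10 endothelial markers summed to 46.9 to 49.5, 61.1 to 64.6 and 46.8 to 51.2 TPM in the same groups, with Cldn5 listed at 0 in every library, and of the 4 that passed the filter 2 rose and 1 fell with Zscan4f. The 13 epithelial and keratinocyte markers summed to 135 to 139 TPM in control, 319 to 324 TPM with Zscan4f and 149 to 155 TPM with Zscan4f3A. With Zscan4f this sum was above control, as were Ptgs2, Ptgs1 and Ccl2. With Zscan4f3A the sum and Ptgs1 lay above every control library, while Ptgs2 and Ccl2 overlapped control. Of the 9 that passed the filter, Cldn4 did so through the Zscan4f libraries alone and Krt5 through the control libraries alone, and of the other 7, 6 rose and 0 fell with Zscan4f. Of all genes tested, 18.5% were called for Zscan4f against control. The part of such other cell types in the changes of the 10 genes was not tested.

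The 3 genes most alike in pattern to Ptgs2, by Pearson's r of log2(TPM + 1) over the 9 libraries, were the desmoglein Dsg2 (r = 0.997), the mitochondrial carrier Slc25a24 (0.996) and the ectonucleotidase Entpd1 (0.996). For Ccl2 they were Ptgs2 itself (0.994), Ifitm1 (0.994) and St14 (0.993), and for Ptgs1 the disulfide isomerase Pdia5 (0.992), Asb13 (0.991) and Cyp4f39 (0.990). Ptges was closest to the microfibril gene Mfap5 (0.983), and Cxcl12 to Slc18b1 (0.986). All of these r rest on the same 9 libraries in 3 groups, so a shared difference between groups alone gives a high value.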

How the data were processed

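RNA-seq of 9 libraries was analysed, in 3 groups of 3 taken from the labels with their replicate numbers. HISAT2 2.1.0 and StringTie are named per the submitters' processing notes. The sources used here give no StringTie version, genome build or annotation and do not say whether strand was used. The deposited TPM values are the authors' levels per transcript length at a common total. The authors' deposited FPKM values, scaled to sequenced fragments, served for an alternative. The deposited coverage, a signal not corrected for depth, gave the estimate of aligned sequence from its ratio to FPKM. Of the 54986 gene IDs, 52480 occur with the same version in GENCODE M21 (GRCm38), 100% of them at identical coordinates, so coordinates are given on GRCm38. The 15 IDs with more than 1 entry were summed. Opposite-strand genes overlap Ccl2 (Gm17268, listed at 0 in every library) and Ptgs1 (at most 0.609 TPM). No libraries were identical (0 of 36 pairs).

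A gene was kept if 3 or more of the 9 libraries reached a TPM of 1 (15837 genes). Log2(TPM + 1) was fitted with limma 3.58.1 in R 4.3.3 (group means, all 9 libraries, empirical Bayes with a trend), two-sided, with a threshold of 0.05 on the Benjamini-Hochberg adjusted p. Fold changes are on this scale, which understates changes of low genes, and intervals are 95% from the fit. The code was tested on simulated data. Exact permutation tests were run in SciPy 1.17.1 and figures drawn with matplotlib 3.10.9. Named were the 10 genes, every gene of the pathway lists called in a comparison, up to 4 others per list with the smallest p, neighbours in the chemokine clusters and the 3 genes most alike in pattern. Core receptors, NF-kB factors, markers and a few low or abundant list members were also named, chosen after their values were seen. Ccl19 and Clcf1 each match several gene IDs and were left out of the lists. The 10 genes and the lists were chosen with earlier results of these data known. The alternatives changed the pseudocount (0.1), the filter (none, or a TPM of 5), the unit (FPKM), the scaling (median of ratios) and the libraries fitted (only the 2 groups compared, or each library left out), or added the replicate number as a block.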

Additional observations from a re-analysis of the deposited data

How the results depend on the processing

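For Zscan4f against control, the calls of Ccl2, Ptgs1, Ptgs2 and Cxcl12 held under every alternative run, and that of Ptges under all but the fit without a filter (adjusted p = 0.056). The count of the 10 genes called for Zscan4f against Zscan4f3A was 5, then 3 without a filter, and from 3 to 5 with 1 library left out. For Zscan4f3A against control it was 0 under every alternative. Over all genes, 5 were called for Zscan4f3A against control, 3 without a filter, 1 with the replicate block, and from 1 to 16 with 1 library left out. For Zscan4f against Zscan4f3A, 2395 genes were called, 1496 without a filter and from 1574 to 2168 with 1 library left out. The cause of these shifts was not tested. Il6 could not be fitted with the filter at a TPM of 5.

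Sign changes occurred in values near 0 that were not called. Csf1 for Zscan4f3A against control, -0.0057 in the fit reported, was 0.017 with FPKM, 0.0030 with median-of-ratios scaling, and from -0.077 to 0.047 with 1 library left out. The other ranges that crossed 0 with 1 library left out were -0.0027 to 0.046 for Ccl7 and -0.040 to 0.12 for Cxcl5 (Zscan4f against control), -0.0051 to 0.050 for Ccl2 (Zscan4f3A against control), and -0.19 to 0.029 for Cxcl1 and -0.20 to 0.00076 for Cxcl5 (Zscan4f against Zscan4f3A).

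The groups share replicate numbers. Deviations of same-numbered libraries from their group means correlated at -0.079 to 0.053, and those of differently numbered libraries at -0.048 to 0.054. No shared deviation was seen by number, which does not tell whether same-numbered libraries share a preparation. With the replicate block, 5 of the 10 genes were called for Zscan4f against control, 0 for Zscan4f3A against control and 4 for Zscan4f against Zscan4f3A, where Ptges had an adjusted p of 0.060. Depth was lowest in Zscan4f3A replicate 3, at 3.31 gigabases, and the counting error of Il6, the lowest gene, is unknown.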

Other observations

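Tlr4, the receptor for lipopolysaccharide and a known inducer of several of these factors, spread widely within the control and the Zscan4f group. The control libraries held 23.2, 20.1 and 5.604 TPM and the Zscan4f libraries 21.8, 5.57 and 19.4 TPM, while those of Zscan4f3A held 5.01, 7.03 and 4.36 TPM. In each of the first groups 1 library lay near the Zscan4f3A values, and Zscan4f3A against control did not pass the test. The gene was chosen after its values were seen, and the reason for the spread was not tested.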
